A study of Mus musculus with 12 samples.

Results

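The 10 genes described here encode the cytokines, receptors, transcription factor and feedback inhibitors of oncostatin M and leukaemia inhibitory factor signaling, and they were chosen by gene name from the 43346 genes measured. They are the ligand genes Osm, Lif and Clcf1, the receptor genes Osmr and Lifr, the transcription factor gene Stat3, and the feedback genes Socs1, Socs2, Socs3 and Cish. Their messenger RNA was measured in kidneys of mice (Mus musculus) at day 1, in 6 libraries labelled sham (samples 1 to 6) and 6 labelled HP-AKI (samples 7, 8, 9, 11, 12 and 13). The labels leave the letters HP-AKI unexplained; the usual reading is acute kidney injury caused by heme proteins, which overload the kidney when muscle or red cells break down. Strain, age, sex, genotype and the agent used are not given in the sources used here. Whether each library came from its own animal is not labelled, so p-values reflect the spread among libraries alone, and part of it may be technical.

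As background, cytokines of the interleukin 6 family bring the shared receptor chain gp130, the product of Il6st, together with a partner such as the LIF receptor or the oncostatin M receptor. The JAK kinases bound to these chains then phosphorylate STAT3, which enters the nucleus and switches on target genes. SOCS proteins made in response bind the receptors or the JAK kinases and shut the signal down; SOCS3 is the best known brake on gp130, while CIS (the product of Cish) and SOCS2 are best known downstream of STAT5 and the growth hormone receptor.

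The question was how each of these genes differed between HP-AKI and sham kidney at day 1. Lif, Clcf1, Osmr, Stat3, Socs2 and Socs3 rose, Lifr and Cish fell, and Osm and Socs1 were too rare to be tested. Levels are given as CPM (counts assigned to the gene, relative to a fixed total of counts per library) scaled by TMM factors, and a difference was called below an adjusted p of 0.05. The test was the two-sided quasi-likelihood F-test of edgeR, with Benjamini-Hochberg adjustment over 17470 genes. Of the 8 members tested, 8 passed, 6 higher and 2 lower. Over all tested genes 72.8% passed, 37.7% higher and 35.2% lower, so passing alone did not set the members apart. In 7 of the 8 the sham and HP-AKI values did not overlap, against 52.4% of all tested genes. The median log2 fold change of the 8 was 2.22, against 0.04 over all tested genes. The members were chosen with earlier results of these data known, so these comparisons are no independent evidence that they stand apart.

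**Figure D1:**
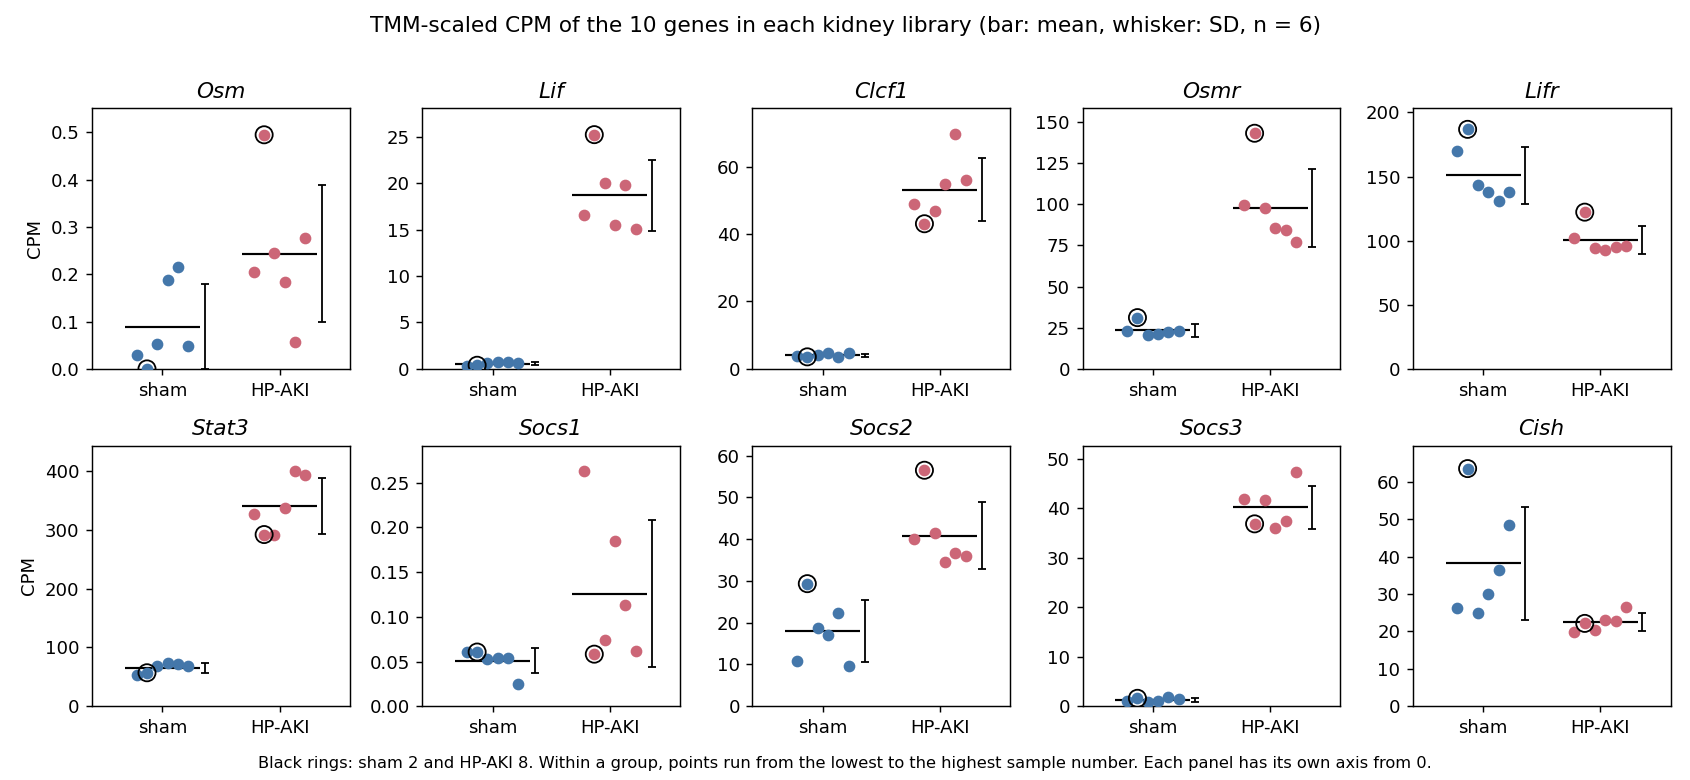
TMM-scaled CPM (vertical axis, from 0 in each panel) of the 10 genes in 6 sham and 6 HP-AKI libraries; each point is 1 library, bars are means, whiskers are SD, and black rings mark sham 2 and HP-AKI 8. The groups are apart for Lif, Clcf1, Osmr, Lifr, Stat3, Socs2 and Socs3, and overlap for Osm, Socs1 and Cish.

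The sham libraries held 35201197 to 41951129 counts and the HP-AKI libraries 31624522 to 40630917, so a gene without a count in a library could still be present there at up to the level of 3 counts. Intervals and such floors cover counting error only. The first principal component of log2 CPM (81.3% of the variance) separated the groups, and on the second (7.85%) sham 1, sham 2 and HP-AKI 8 lay at one end, with HP-AKI 9 next to them. Proximal tubule markers such as Lrp2 were abundant in sham, as the label kidney implies. Their summed level was 14828 to 16243 CPM in sham and 2901 to 4295 CPM in HP-AKI, and 8 of 8 fell. Neutrophil markers moved the other way: 6 of the 6 tested rose, and the summed level of the list of 10 was 1.94 to 3.74 CPM in sham and 20.6 to 171 CPM in HP-AKI, highest in HP-AKI 8. Some of the 6, such as Mmp8 (5 counts over sham) and Retnlg (22), passed the filter on low counts only through HP-AKI. For these only a rise could be called, so the count of 6 is no evidence of direction. Of the defining neutrophil genes that were not tested, Ly6g summed to 3 counts over sham and to 42 over HP-AKI, Camp to 0 and 9, Ngp to 2 and 122, and Mpo to 5 and 5. Summed monocyte and macrophage markers stayed in overlapping ranges, 110.8 to 149.8 CPM in sham and 92.2 to 137 CPM in HP-AKI (3 higher, 6 lower and 1 not passing of 10), while lymphocyte markers were at 6.50 to 8.58 and 1.68 to 2.30 CPM (5 lower of 6 tested). Endothelium summed to 598 to 669 and 677 to 992 CPM (5 higher, 1 lower and 2 not passing of 8). Fibroblasts and pericytes summed to 314 to 362 and 437 to 562 CPM. Their 7 genes did not move as 1 group (3 higher, 2 lower, 2 not passing; median log2 fold change -0.15). Loop of Henle and distal tubule summed to 7401 to 8060 and 4488 to 6776 CPM (1 higher, 3 lower, 2 not passing). Adrenal gland and fat summed to 1.85 to 13.3 and 6.25 to 18.03 CPM (1 higher and 3 not passing of 4 tested).

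Among the ligands, Lif and Clcf1 rose by the largest factors of the receptor and ligand members. Lif encodes leukaemia inhibitory factor, which binds the LIF receptor and gp130. Its level was 0.304, 0.624 and 0.755 CPM at the lowest, median and highest in sham, and 15.1, 18.2 and 25.2 CPM in HP-AKI. The 2 groups did not overlap, and HP-AKI 8 was the highest library. The means were 0.571 ± 0.182 (SD, n = 6) and 18.7 ± 3.84 CPM (SD, n = 6), a 32.3-fold difference and a log2 fold change of 5.01 ± 0.21 (SE; edgeR adjusted p = 2.42e-11). In whole kidney RNA, fewer or more cells of a type and less or more RNA per cell cannot be told apart, and this holds for every gene below. The part of the cells behind the marker lists in these differences was not tested.

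Clcf1 encodes cardiotrophin-like cytokine factor 1, which acts through the CNTF receptor, the LIF receptor and gp130. In sham it ran from 3.58 through a median of 4.03 to 4.64 CPM. In HP-AKI it ran from 43.0 through 51.9 to 69.6 CPM. The groups were far apart and, unlike Lif, HP-AKI 8 was the lowest HP-AKI library and HP-AKI 12 the highest. The mean rose from 4.08 ± 0.475 to 53.2 ± 9.41 CPM (SD, n = 6 each), 13-fold, with a log2 fold change of 3.70 ± 0.13 (SE; edgeR adjusted p = 4.30e-12). Of the counts of Clcf1, some may belong to AC109138.7, a gene on the same strand that shares 311 exon bases with it in the GENCODE vM21 annotation.

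Osm, which encodes oncostatin M, a cytokine made chiefly by blood-derived cells, stayed rare in both groups. It had 0 to 8 counts per sham library (20 in all) and 2 to 17 per HP-AKI library (53 in all). The level was 0, 0.0510 and 0.215 CPM at the lowest, median and highest in sham, and 0.0565, 0.225 and 0.495 CPM in HP-AKI. The groups overlapped: sham 4 and sham 5 lay above HP-AKI 11 and HP-AKI 12, and HP-AKI 8, with the most neutrophil marker RNA, was the highest. In sham 2, where no count was seen, 3 counts would be 0.0822 CPM. The summed counts, relative to the TMM-scaled library totals, gave a ratio of 2.63 (exact 95% interval 1.54 to 4.64, counting error only). Osm did not pass the filter on low counts; in a fit without that filter its log2 fold change was 1.35 ± 0.59 (SE; edgeR adjusted p = 0.0679), which did not reach the threshold.

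Seen beside the other cytokines that use gp130, Lif and Clcf1 took larger mean shares of the family in HP-AKI. Of the 9 listed genes 6 were tested, of which 4 were higher (Lif, Clcf1, Il6 and Il11), 1 was lower (Ctf1) and Cntf did not pass; the median log2 fold change was 3.83. Over all tested genes 37.7% were higher and 35.2% lower. Il6 and Il11 had 12 and 37 counts over sham and passed the filter on low counts only through HP-AKI. For both only a rise could be called, so the count of 4 and the median are no evidence of direction for the list. The sham mean of Il6 lies below the level of 3 counts in a single sham library (0.0715 to 0.0852 CPM). It lies above that of 3 counts over the sham libraries together (0.0132 CPM). Il6, which encodes interleukin 6, rose from 0.0570 ± 0.0499 to 5.30 ± 2.34 CPM (log2 fold change 6.50 ± 0.46, SE; edgeR adjusted p = 5.63e-09). Il11, which encodes interleukin 11, rose from 0.165 ± 0.0649 to 2.65 ± 0.740 CPM (log2 fold change 3.95 ± 0.28). Ctf1, which encodes cardiotrophin 1, fell from 4.69 ± 0.647 to 2.33 ± 0.400 CPM, while Cntf had 5.17 ± 0.856 and 5.19 ± 1.17 CPM.

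Levels of different genes were compared only per kilobase of the gene length listed in the table. On that scale the 9 ligands summed to 9.81 ± 1.05 CPM per kilobase in sham and 32.2 ± 3.06 in HP-AKI (SD, n = 6 each). Cntf (48.8%) and Ctf1 (35.5%) made up most of the sum in sham. In HP-AKI Clcf1 was first with 44.8%, up from 11.4%, and Lif went from 1.38% to 13.2%. Il6, from 0.522% to 14.8%, and Il11, from 1.30% to 6.23%, also took larger mean shares. Osm held 0.433% and 0.329%. Together Osm, Lif and Clcf1 made up 13.2 ± 2.90% (9.59% to 16.9%) of the ligand sum in sham and 58.4 ± 7.60% (47.2% to 68.1%) in HP-AKI. The groups did not overlap, and the mean log2 difference of 2.17 had an exact two-sided permutation p of 0.00216 (n = 6 each), the smallest that the 924 ways of dividing the libraries allow, and 0.00289 after adjustment over the 4 within-library ratios tested. Lif and Clcf1 had already separated the groups widely, so that p is no independent evidence. With plain counts in place of counts per length the log2 difference was 1.37.

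**Figure D2:**
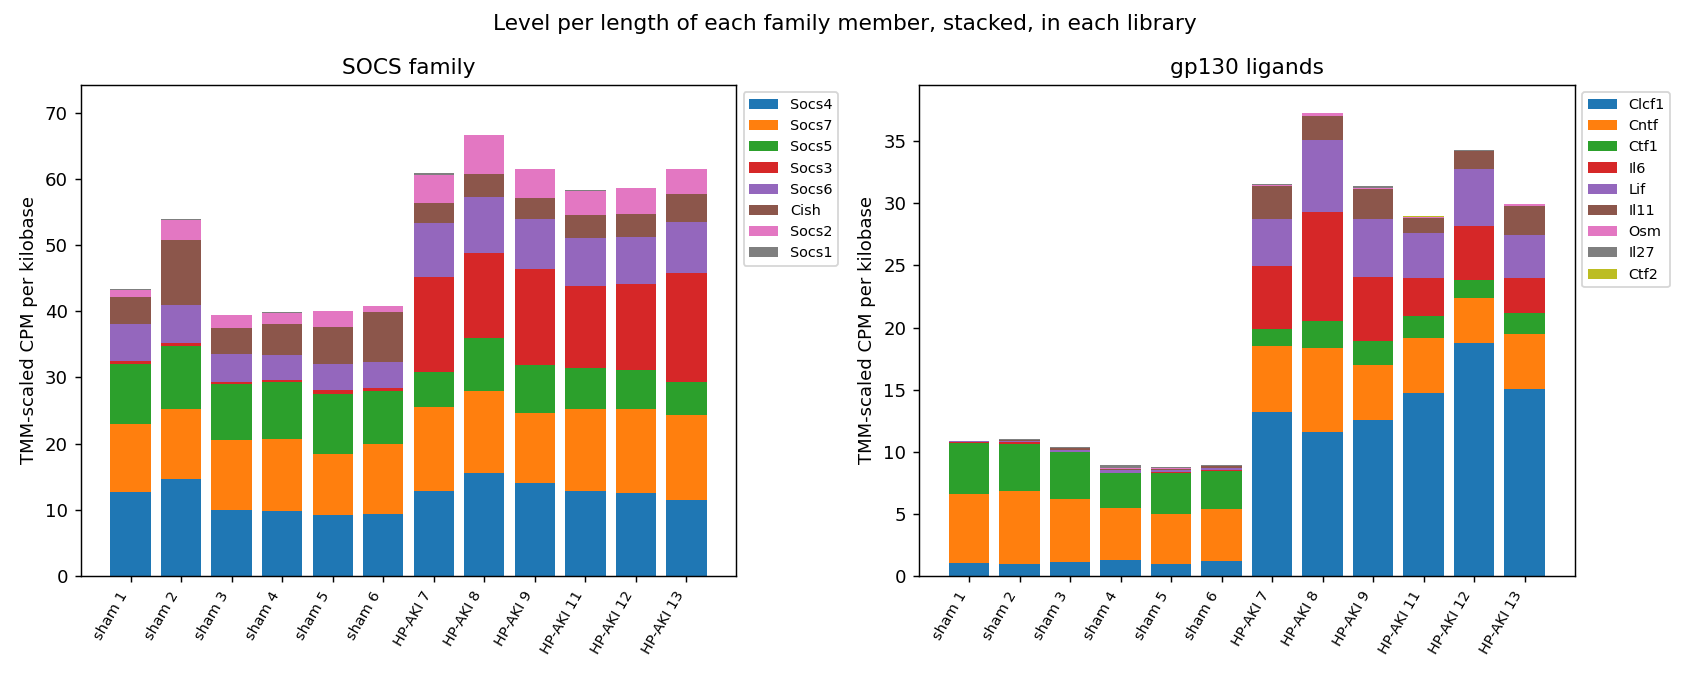
Stacked TMM-scaled CPM per kilobase (vertical axes) of the 8 SOCS family genes (left) and the 9 gp130 ligand genes (right), with 1 bar for each of the 12 libraries. Socs3 is a thin band in sham (mean 1.07% of the bar) and a wide one in HP-AKI (22.7%), and Clcf1 becomes the widest ligand band in HP-AKI (44.8%).

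The receptors of oncostatin M and LIF moved in opposite directions. Osmr encodes the chain that pairs with gp130 to bind oncostatin M. It ran from 20.5 through a median of 22.7 to 31.1 CPM in sham, with sham 2 the highest, and from 76.95 through 91.4 to 143 CPM in HP-AKI, with HP-AKI 8 the highest. The groups did not overlap, and 5 of the 6 sham libraries lay within 20.5 to 23.0 CPM. The mean rose from 23.5 ± 3.89 to 97.8 ± 23.8 CPM (SD, n = 6 each), 4.16-fold, a log2 fold change of 2.06 ± 0.15 (SE; edgeR adjusted p = 7.90e-09). Without HP-AKI 8 the log2 fold change was 1.90.

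Lifr encodes the LIF receptor chain, which LIF, CLCF1 and other family cytokines share. Its level was 131, 141 and 187 CPM at the lowest, median and highest in sham, and 93.1, 95.5 and 122 CPM in HP-AKI. Every HP-AKI library lay below every sham library, and sham 2 and HP-AKI 8 were again the highest of their groups. The mean fell from 151 ± 22.2 to 100.4 ± 11.1 CPM (SD, n = 6 each), a 1.504-fold difference and a log2 fold change of -0.59 ± 0.10 (SE; edgeR adjusted p = 8.49e-05).

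The ratio of Osmr to Lifr within each library needs no scaling between libraries. Per length, it was 0.133 ± 0.0127 in sham (0.115 to 0.148) and 0.823 ± 0.109 in HP-AKI (0.686 to 0.998). In sham kidney Lifr RNA was thus the more abundant by a wide margin in all 6 libraries, and in HP-AKI 8 the levels per length were nearly equal. The mean ratio differed 6.17-fold by its log2 difference of 2.62, with an exact two-sided permutation p of 0.00216 (n = 6 each; adjusted 0.00289 over the 4 ratios), the smallest p possible. Osmr and Lifr each separated the groups, in opposite directions, so the ratio had to separate them too. That p is therefore no independent evidence. Without sham 1, sham 2 and HP-AKI 8 the log2 difference was 2.54.

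**Figure D3:**
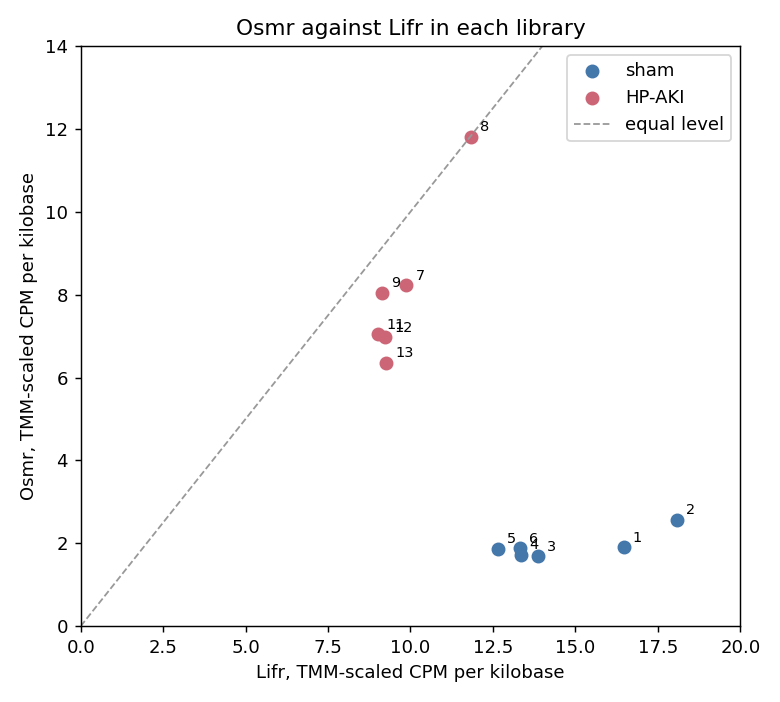
Osmr (vertical axis) against Lifr (horizontal axis), both in TMM-scaled CPM per kilobase, with 1 point per library labelled by its sample number; the dashed line marks equal levels. The 6 sham libraries lie far below the line (ratios 0.115 to 0.148) and the 6 HP-AKI libraries close to or on it (0.686 to 0.998).

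Of the 10 listed receptors and soluble partners all were tested, with 4 higher, 3 lower and 3 not passing, and a median log2 fold change of 0.11. That is no more passing than the 72.8% over all tested genes. Il6st, the gene for gp130 itself, moved little: 309 ± 14.8 CPM in sham and 362 ± 22.4 CPM in HP-AKI, a log2 fold change of 0.23 ± 0.07 (SE; edgeR adjusted p = 5.06e-03). With library sizes alone as scaling that value was 0.35, because this scaling moved the median of all tested genes from 0.04 to 0.16. Il6ra, the interleukin 6 receptor gene, rose from 3.49 ± 0.549 to 14.1 ± 1.17 CPM (log2 fold change 2.01 ± 0.12). Il11ra1 (log2 fold change -0.54) and Il27ra (-0.70) fell with Lifr. The call of Il27ra was lost without sham 4, HP-AKI 9 or HP-AKI 11 (-0.58, -0.62 and -0.63) and with library sizes alone as scaling (-0.59), and its value without sham 1, sham 2 and HP-AKI 8 was -1.11. Cntfr, the CNTF receptor gene through which CLCF1 also acts, had 2.14 ± 0.511 and 2.70 ± 1.09 CPM and did not pass.

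Stat3 encodes the transcription factor that gp130 receptors activate. It ran from 52.4 through a median of 68.1 to 73.1 CPM in sham and from 292 through 332 to 401 CPM in HP-AKI, so the groups were well apart. HP-AKI 12 was the highest library, and HP-AKI 8 and HP-AKI 9 lay at the low end of their group. The mean rose from 65.1 ± 8.45 to 340 ± 47.8 CPM (SD, n = 6 each), 5.23-fold, a log2 fold change of 2.39 ± 0.11 (SE; edgeR adjusted p = 7.69e-11). The neighbouring gene Stat5a, on the opposite strand, shares 72 exon bases with Stat3 in GENCODE vM21.

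Among the 7 STAT genes, 2 were higher (Stat3 and Stat6), 2 lower and 3 did not pass; the median log2 fold change was 0.20. As a list they passed no more often than the 72.8% over all tested genes. Stat5a had 14.8 ± 1.87 and 13.99 ± 2.91 CPM and did not pass. Stat5b had a log2 fold change of -0.29 ± 0.10, which no longer passed with library sizes alone as scaling (-0.18, edgeR adjusted p = 0.138). Stat6 (0.25 ± 0.09) lost its call when sham 1, sham 2, HP-AKI 7, HP-AKI 9, HP-AKI 11, HP-AKI 12 or HP-AKI 13 was left out, with values of 0.19 to 0.23, with upper-quartile scaling (0.20) and with no filter (0.21), and was 0.16 without sham 1, sham 2 and HP-AKI 8. Stat2, which did not pass at 0.20, passed without sham 5 (0.23) or HP-AKI 8 (0.22), with library sizes alone (0.32) and with a filter of 1 CPM in 6 libraries (0.20).

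Of the 13 kinases, phosphatases and PIAS genes listed, 6 were higher, 3 lower and 4 did not pass, with a median log2 fold change of 0.38. This list, too, passed no more often than the 72.8% over all tested genes. Jak1, a kinase bound to gp130, rose from 222 ± 19.3 to 327 ± 29.3 CPM (log2 fold change 0.56 ± 0.08, SE). Jak2 had 68.9 ± 8.73 and 81.1 ± 14.9 CPM and did not pass (0.24 ± 0.11; edgeR adjusted p = 0.0741), although it passed without sham 2 (0.29), without sham 1, sham 2 and HP-AKI 8 (0.20) and with library sizes alone (0.36). Jak3 (1.23 ± 0.17), which pairs with receptors of the common gamma chain, and the phosphatase genes Ptpn1 (1.00 ± 0.11) and Ptpn2 (1.05 ± 0.12), whose products act on JAK kinases, had the largest changes of this list, all upward.

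**Figure D4:**
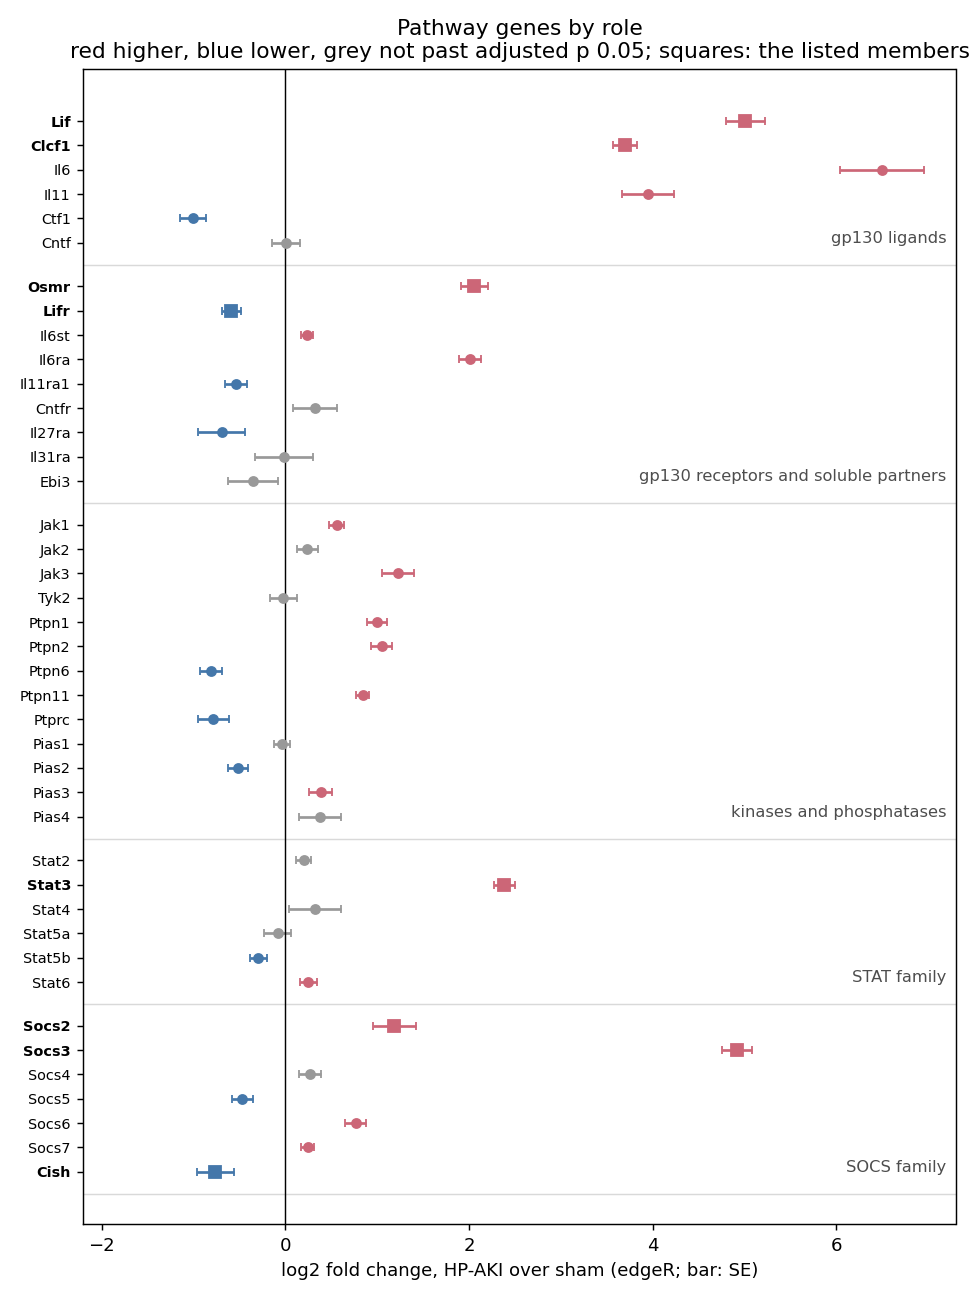
Fitted log2 fold change of HP-AKI over sham (horizontal axis; bars are SE) for tested genes of 5 role groups of the pathway, with members as squares, red for higher, blue for lower and grey for genes that did not pass an adjusted p of 0.05 (edgeR). Lif, Clcf1 and Socs3 lie at 3.70 to 5.01, Il6 beyond them at 6.50, and Il6st, Jak1 and Jak2 between 0.23 and 0.56.

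Of the feedback genes, Socs3 had the largest change, Socs2 rose less, Cish fell and Socs1 stayed close to the limit of detection. Promoter sequences are shown for Socs3 and Cish because both hold the motif TTCNNNGAA, the general form of a STAT binding site, within 250 bases before to 50 bases after the RefSeq start (GRCm38.p6), while their RNA moved in opposite directions. The fixed letters read the same on both strands, so 1 search covered both. Capitals mark the matches.
Socs3: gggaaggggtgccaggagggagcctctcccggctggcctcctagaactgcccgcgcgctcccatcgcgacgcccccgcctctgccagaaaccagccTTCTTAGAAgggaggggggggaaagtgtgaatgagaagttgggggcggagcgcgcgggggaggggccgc
Cish: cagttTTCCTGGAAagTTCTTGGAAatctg

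The Socs3 stretch is chr11:117969452-117969616 on the minus strand, bases -250 to -86 counted from the start, with the match at -154 to -146; in GENCODE vM21 it lies in an intron of a noncoding Socs3 transcript, upstream of the coding transcript. The Cish stretch is chr9:107296654-107296683 on the plus strand, bases -5 to 25, with matches at bases 1 to 9 and 12 to 20; it lies in the 5′ UTR of the longest Cish transcript. RefSeq windows were found for 7 of the 10 members, and the motif was in 2 of them, Socs3 and Cish, and not in the windows of Socs1, Stat3, Osmr, Lif or Lifr. Of all 32851 windows of 300 bases in the RefSeq set, 8.30% held it at least once and 0.457% held it at 2 or more places, as Cish did. A match of letters is a description and does not show that a STAT protein was bound there.

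Socs3 encodes the SOCS protein that binds gp130 and blocks its JAK kinases. Its level was 0.929, 1.32 and 1.80 CPM at the lowest, median and highest in sham, and 35.9, 39.6 and 47.4 CPM in HP-AKI. The groups were far apart, and within HP-AKI the spread was small, with HP-AKI 13 the highest. The mean rose from 1.32 ± 0.363 to 40.2 ± 4.31 CPM (SD, n = 6 each), 30.3-fold, a log2 fold change of 4.92 ± 0.16 (SE; edgeR adjusted p = 2.82e-12). That adjusted p was the smallest of the 8 members tested.

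Socs2 encodes a SOCS protein known for restraining growth hormone receptor signaling. In sham it ran from 9.52 through a median of 17.9 to 29.3 CPM, a wide spread with sham 2 the highest and sham 6 the lowest. In HP-AKI it ran from 34.4 through 38.4 to 56.5 CPM, with HP-AKI 8 standing above the rest. The groups did not overlap. The mean rose from 17.9 ± 7.38 to 40.9 ± 8.11 CPM (SD, n = 6 each), 2.28-fold, a log2 fold change of 1.19 ± 0.23 (SE; edgeR adjusted p = 2.78e-04), and the value was 1.12 without sham 1, sham 2 and HP-AKI 8.

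Cish encodes CIS, a SOCS protein that acts on receptors using STAT5. In sham it ran from 24.8 through a median of 33.2 to 63.5 CPM, with sham 2 the highest at 63.5 and sham 6 next at 48.3 CPM. In HP-AKI it ran from 19.95 through 22.4 to 26.6 CPM. The groups overlapped, since HP-AKI 13 lay above sham 1 and sham 3. The mean fell from 38.2 ± 15.05 to 22.5 ± 2.38 CPM (SD, n = 6 each), 1.70-fold, a log2 fold change of -0.76 ± 0.20 (SE; edgeR adjusted p = 2.90e-03). The coefficient of variation was 39.4% in sham and 10.6% in HP-AKI, and without sham 2 the log2 fold change was -0.57. Cish shares 261 exon bases with Gm17040 and 479 with Gm17041, both on the opposite strand, and since the library kit does not mark strand, reads of these genes cannot be told apart there.

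Socs1 encodes a SOCS protein that blocks JAK kinases and is best known downstream of interferons. It had 11 counts over the sham libraries (1 or 2 in each) and 28 over the HP-AKI libraries (2 to 9 in each). The levels were 0.0244, 0.0538 and 0.0609 CPM at the lowest, median and highest in sham and 0.0582, 0.0933 and 0.263 CPM in HP-AKI, so the groups overlapped, and HP-AKI 7 was the highest. Most of these values lie below what 3 counts would give. The ratio of summed counts, scaled in the same way, was 2.52 (exact 95% interval 1.22 to 5.62, counting error only). Socs1 was not tested after the filter, and without the filter its log2 fold change was 1.23 ± 0.53 (SE; edgeR adjusted p = 0.0603).

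Within the SOCS family of 8 genes, 7 were tested, of which 4 were higher, 2 lower and 1 did not pass, with a median log2 fold change of 0.27. The background was 72.8% passing, 37.7% higher and 35.2% lower over all tested genes. Socs6 rose from 37.2 ± 7.26 to 63.2 ± 4.39 CPM (0.77 ± 0.11), Socs7 rose by 0.24 ± 0.07, and Socs5 fell by 0.47 on the log2 scale. Socs4 had 75.4 ± 15.4 and 91.0 ± 9.81 CPM and just missed the threshold (0.27 ± 0.12; edgeR adjusted p = 0.0525); it passed without sham 1 (0.31), sham 2 (0.37) or HP-AKI 13 (0.30), without sham 1, sham 2 and HP-AKI 8 (0.37), with library sizes alone (0.40) and by limma-voom (0.29).

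Per length, the family summed to 42.9 ± 5.56 CPM per kilobase in sham and 61.2 ± 2.98 in HP-AKI (SD, n = 6 each). In sham Socs4 (25.4%), Socs7 (24.4%) and Socs5 (20.5%) led. Socs3 was 1.07 ± 0.292% of the sum in sham (0.814% to 1.55%) and 22.7 ± 2.54% in HP-AKI (19.1% to 26.6%), where it stood beside Socs4 at 21.6% and Socs7 at 19.98%. These Socs3 shares did not overlap, and the mean log2 difference of 4.44 had an exact two-sided permutation p of 0.00216 (n = 6 each; adjusted 0.00289), the smallest p possible. Socs3 itself had already separated the groups widely, so that p is no independent evidence.

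Cish and Socs2, the genes tied to STAT5, moved against each other, and their joint share per length went from 18.0 ± 4.41% (12.1% to 24.1%) to 12.7 ± 0.730% (12.03% to 14.07%). The groups overlapped, and the log2 difference was -0.47 with an exact two-sided permutation p of 0.0152 (n = 6 each; adjusted 0.0152). This difference was not called when plain counts replaced counts per length (-0.18; adjusted exact permutation p = 0.258), so it rests on the listed gene lengths. Cish alone went from 13.7% to 5.74% of the family, and Socs2 from 4.35% to 6.96%. The family sum by which these shares are divided rose from 42.9 to 61.2 CPM per kilobase. In CPM per kilobase Cish went from 5.95 to 3.51 and Socs2 from 1.88 to 4.29. Socs3, which is part of the family sum, went from 0.458 to 13.9. The lower joint share therefore does not show that their joint level fell, and its permutation p is not independent of the rise of Socs3.

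The order of the members per length changed between the groups. It rests on the listed gene lengths, which need not be the lengths of the transcripts present. For Cish the listed 6419 bases cover nearly all of its locus, so its place may be too low. In sham Lifr was highest with 14.6 ± 2.15 CPM per kilobase, followed by Stat3 with 6.83 ± 0.887 and Cish with 5.95 ± 2.34, whose ranges overlapped. Osmr (1.94), Socs2 (1.88) and Clcf1 (1.10) came next, each overlapping its neighbour in the order. Socs3 (0.458) and Lif (0.131) followed, each apart from its neighbours, and Socs1 (0.0419) and Osm (0.0393) closed the order without differing beyond their spread.

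In HP-AKI Stat3 was highest with 35.7 ± 5.02 CPM per kilobase, above every value of the next genes. Clcf1 (14.3 ± 2.53) and Socs3 (13.9 ± 1.49) overlapped, as did Lifr (9.72 ± 1.08) and Osmr (8.08 ± 1.96), although Lifr was the higher in 6 of 6 libraries. That count depends on the listed lengths. In plain CPM, Osmr was above Lifr in HP-AKI 8 (143 against 122) and HP-AKI 9 (97.5 against 94.3), and below it in the other HP-AKI libraries. Lif (4.30) overlapped Socs2 (4.29), and Socs2 overlapped Cish (3.51). Osm (0.107) and Socs1 (0.103) lay below every Cish value and overlapped each other. Clcf1 was above Socs3 in 2 of the 6 libraries, so the order of this pair is not settled by the means.

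Genes known to respond to STAT3 in other settings were read next to Stat3 and Socs3. Of 27 such genes 24 were tested, with 22 higher and 2 lower in HP-AKI, and a median log2 fold change of 3.11. The shares over all tested genes were 37.7% higher and 35.2% lower. Some of the 22, such as Saa3, passed the filter on low counts only through HP-AKI, so for them only a rise could be called. Timp1, an inhibitor of metalloproteinases, Saa3, an acute phase protein, and Serpina3n, a protease inhibitor, had the largest changes of the list, with log2 fold changes of 6.63 ± 0.30, 6.61 ± 0.59 and 6.33 ± 0.19 (SE). Saa3, with 7 counts in sham, was at 5.92 without sham 1, sham 2 and HP-AKI 8. Mcl1, a survival gene, rose from 196 ± 29.5 to 442 ± 82.9 CPM. The genes that fell were Ccnd1, which encodes cyclin D1 (-2.10), and Vegfa, which encodes a vascular growth factor (-1.10). Reg3b was listed at 0 in all 12 libraries. Such genes also answer to other signals, and this list was drawn up with earlier results of these data known, so its count is no independent evidence about STAT3.

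The libraries did not stand in 1 common order over the members. HP-AKI 8 was the highest HP-AKI library for 4 of the 8 tested members (Socs2, Osmr, Lif and Lifr) and the lowest for Clcf1. Sham 2 was the highest sham library for 4 (Socs2, Cish, Osmr and Lifr) and the lowest for Clcf1. Without sham 1, sham 2 and HP-AKI 8, all 8 kept their direction and their call, with log2 fold changes of 4.63 for Lif, 3.65 for Clcf1, 1.99 for Osmr, -0.56 for Lifr, 2.27 for Stat3, 4.92 for Socs3 and -0.67 for Cish.

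Under GRCm38, as the table and the GENCODE vM21 annotation place them, these protein-coding genes lie as follows. Osm (ENSMUSG00000058755) and Lif (ENSMUSG00000034394) are near each other on chromosome 11, from 4236420 to 4241026 and from 4257557 to 4272514. Stat3 (ENSMUSG00000004040) and Socs3 (ENSMUSG00000053113) are on the same chromosome, from 100885098 to 100939540 and from 117966079 to 117970047. Osmr (ENSMUSG00000022146) and Lifr (ENSMUSG00000054263) are both on chromosome 15, from 6813577 to 6874969 and from 7129559 to 7197489. Clcf1 (ENSMUSG00000040663) is on chromosome 19 from 4214238 to 4223490, Cish (ENSMUSG00000032578) on chromosome 9 from 107296026 to 107302784, Socs2 (ENSMUSG00000020027) on chromosome 10 from 95385362 to 95417180, and Socs1 (ENSMUSG00000038037) on chromosome 16 from 10783808 to 10785536.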

How the data were processed

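Samples were placed in the groups of their labels (6 sham, 6 HP-AKI, day 1). Per the labels' protocols, Trizol and a Qiagen kit gave the RNA, and TruSeq RNA v2 libraries were sequenced on an Illumina HiSeq. TopHat2 2.1.0, featureCounts, edgeR and GRCm38 are listed in the submitters' processing notes with no roles or settings; the strand setting is not given in the sources used here. The authors deposited raw, unnormalized counts per gene. They also deposited RPKM values, which follow the listed gene length and a sample total 2.97 to 3.47 times the sum of counts; no test used these.

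The test was the two-sided quasi-likelihood F-test of edgeR 4.0.16 (with limma 3.58.1 under R 4.3.3) after filterByExpr and TMM scaling, with Benjamini-Hochberg adjustment across the 17470 genes that passed the filter. With 31624522 to 41951129 counts per library, the common coefficient of biological variation was 0.178 and SE had a median of 0.141 over all log2 fold changes. SE was computed from the log2 fold change and F. The 4 within-library ratios were tested by exact permutation. Alternatives were DESeq2 1.42.0, limma-voom, other scaling factors, other filters, and leaving out libraries.

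The members, the 7 pathway lists (88 entries) and the 8 marker lists were chosen with earlier results of these data known. Genes named beside the members were Il6, Il6st, Il6ra, Il11, Jak1, Jak2, Stat5a and Stat5b, and from each pathway list the 3 called genes with the largest change and the gene with the highest mean CPM; some genes that this rule names are not reported here. Other genes named to spell out a small count or a dependence on a library, the motif search, and the count ratios of Osm and Socs1 were chosen after values were seen. Promoter windows are from RefSeq (GRCm38.p6).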

Additional observations from a re-analysis of the deposited data

Results flagged for a closer look

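Among 28 groups of 6 values checked (each member's CPM and each ratio, in each group), 5 had a highest or lowest library far from the other 5 by Dixon's criterion; chance gives about 1 in 20 such groups. HP-AKI 8 accounted for 3 of them, with 56.5 CPM of Socs2 against a next value of 41.6, 143 CPM of Osmr against 99.7, and 122 CPM of Lifr against 102. Sham 2 had 31.1 CPM of Osmr, where the next library had 23.0. Sham 6 had 0.0244 CPM of Socs1, a single count, where the next library had 0.0531. HP-AKI 8 also had the highest neutrophil marker sum, 171 CPM, against 63.7 CPM in the next library; the part of this in its values was not tested.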

How the results depend on the processing

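No paired analysis was possible because the groups share no replicate numbers, and no batch is given in the labels. Under 20 alternatives each, the 8 tested members kept their direction and call: log2 fold changes ran from 1.05 to 1.38 for Socs2, 4.83 to 5.04 for Socs3, -0.87 to -0.57 for Cish, 2.27 to 2.50 for Stat3, 1.90 to 2.18 for Osmr, 4.63 to 5.12 for Lif, -0.67 to -0.46 for Lifr and 3.59 to 3.82 for Clcf1. The number of called genes ran from 11163 to 14633, and from 12412 to 12961 when 1 library was left out. The joint share of Cish and Socs2 lost its call with plain counts (-0.18; adjusted exact permutation p = 0.258), by the construction of that alternative, which leaves out gene length; the other 3 ratios kept direction and call. Of 70 other listed genes, 64 kept their call under every alternative run, 6 (Il27ra, Jak2, Stat2, Stat5b, Stat6 and Socs4) changed it at least once and 0 reversed. Depth limits Osm and Socs1: most libraries held fewer than 10 counts of either gene.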

Other observations

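The growth hormone receptor and STAT5 axis, in which SOCS2 and CIS act as feedback, was listed beside the members. Of its 14 genes 11 were tested, with 3 higher, 4 lower and 4 not passing, and a median log2 fold change of -0.41. The 3 higher genes were Csf2rb (log2 fold change 1.76), Il7r (1.38) and Igfbp3 (0.65). Passing was no more frequent here than the 72.8% over all tested genes. The growth hormone receptor gene Ghr fell from 1171 ± 180 to 264 ± 42.6 CPM (SD, n = 6 each), with a log2 fold change of -2.15 ± 0.12 (SE). The prolactin receptor gene Prlr fell from 41.1 ± 20.1 to 4.31 ± 1.68 CPM (-3.25 ± 0.35), Igfals, which encodes a carrier subunit of circulating IGF1, by 2.19 and Igf1 by 1.94 on the log2 scale (edgeR). Bcl6, a transcriptional repressor known to share targets with STAT5, did not pass. Its 6 sham libraries spread from 12.8 to 80.0 CPM and its HP-AKI libraries from 24.6 to 31.3. The coefficient of variation in sham was 71.8%, against 39.4% for Cish.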
